A study of Mus musculus with 6 samples.

Results

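The 10 genes described here control the step from G1 to S phase, at which a cell commits to copying its DNA. They are the D-type cyclins Ccnd1, Ccnd2 and Ccnd3, the kinases Cdk4 and Cdk6 that these cyclins activate, the inhibitors Cdkn1a, Cdkn1b and Cdkn2a, the pocket protein Rb1 and the transcription factor E2f1. They were taken from a list of gene names and not by a cut on their values, although earlier results of these data were known when the list was made. All 10 had a row and a p-value in a table of 19571 genes. The RNA came from E14 mouse embryonic stem cells, which grow without feeder cells, in 2 groups of 3 samples. One group had the genotype Dot1L-/-, made with CRISPR/Cas9 (Dot1l KO), and the other was wild type (WT). Both were grown on gelatin in medium with 15% fetal bovine serum and 10 ng/ml LIF, and both are labelled day 14, with no statement of what the day is counted from. Dot1l encodes the enzyme that methylates lysine 79 of histone H3. The labels speak of knock-out lines but do not say whether the 3 KO samples come from 1 clone or several, or whether samples were grown separately, so the p-values rest on the spread between these 6 samples, which may be technical.

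In most cells, growth signals raise the D-type cyclins, which bind Cdk4 or Cdk6 and phosphorylate the Rb1 protein. Phosphorylated Rb1 releases E2F factors, and these switch on the genes of S phase. The product p16 of Cdkn2a blocks Cdk4 and Cdk6 directly, whereas p21 (Cdkn1a) and p27 (Cdkn1b) act mainly on the later cyclin E and Cdk2 complex. Mouse embryonic stem cells are known for a very short G1 phase, with much cyclin E and Cdk2 activity through most of the cycle and Rb1 kept largely phosphorylated, so that they depend less on this step than other cells do.

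The values come from the authors' own comparison by DESeq2. Each gene has a mean normalized count over all 6 libraries, a fold change on the log2 scale, its standard error (SE), a Wald p and a p adjusted over the whole table by the method of Benjamini and Hochberg; the threshold was an adjusted p of 0.05. Values of single samples were not analysed here, so each group is given by the mean implied by the overall mean and the fold change under equal group sizes, and whether samples of the 2 groups overlap cannot be stated. In bulk RNA, fewer cells of a type and less RNA per cell cannot be told apart. The sign of the fold change is not defined in the files. It was taken as KO over WT because retroviral MERVL elements are described in the literature as repressed by Dot1l in such cells, and MT2_Mm, the promoter repeat of MERVL, stood at 1.64 ± 0.41 (SE) per the authors' deposited table (adjusted p = 0.00979). Every direction below would turn around under the opposite sign. Dot1l itself, at -0.16 ± 0.25 with adjusted p = 0.845 per the authors' deposited table, does not settle the sign.

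Of the members, Cdkn2a needs its sequence shown first, because it makes 2 unrelated proteins. A start site upstream gives p19Arf, which stabilises p53, and a start site further down gives p16, the Cdk4 and Cdk6 inhibitor; both share later exons, and the table counts them as 1 gene. The 250 bases before each RefSeq start (GRCm38.p6, minus strand) are shown because any change of Cdkn2a could come from either of them. The first lies at chr4:89294620-89294869 and the second at chr4:89282193-89282442. Capitals mark TTTCCCGC, a form of the E2F site.
Cdkn2a, upstream start: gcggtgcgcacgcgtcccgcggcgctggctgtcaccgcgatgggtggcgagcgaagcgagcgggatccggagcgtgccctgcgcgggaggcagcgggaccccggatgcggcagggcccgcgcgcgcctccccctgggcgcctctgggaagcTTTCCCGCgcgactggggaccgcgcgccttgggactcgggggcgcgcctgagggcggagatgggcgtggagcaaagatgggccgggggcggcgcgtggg
Cdkn2a, downstream start: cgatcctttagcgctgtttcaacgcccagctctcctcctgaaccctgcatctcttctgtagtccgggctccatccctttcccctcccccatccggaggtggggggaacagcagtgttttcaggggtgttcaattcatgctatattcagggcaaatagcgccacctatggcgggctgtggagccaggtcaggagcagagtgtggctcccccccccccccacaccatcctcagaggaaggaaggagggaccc
The match begins 99 bases before the upstream start. RefSeq promoter windows of 300 bases, with 250 before and 50 after a start, were found for 7 members, with 10 starts in all; Ccnd1, Ccnd2 and Rb1 had no entry. TTTCCCGC, searched on both strands, occurred in 1 of these 10 windows and in 1.07% of all 32851 windows. Neither TTTGGCGC, another E2F form found in 0.514% of all windows, nor the AP-1 site TGACTCA, found in 5.20%, occurred in the 10. The 10 windows held from 2 to 48 CpG dinucleotides, the lowest at the Cdkn1a start that lies farthest upstream and the highest at E2f1, against a median of 7 over all windows.

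Of the 10 genes, 1 passed the test: Ccnd2 was lower in Dot1l KO. The share called over the whole table was 6.58% in either direction, 1.25% lower and 5.34% higher, or 5.55% lower and 10.6% higher without adjustment of p. Since every member had a mean count of at least 464, the genes at or above that mean are the closer background, and there 2.93% were called, 1.97% lower and 0.958% higher. At an unadjusted p under 0.05, 4 members were lower (Ccnd2, Cdk6, Cdkn1a and Cdk4) and 1 higher (Cdkn2a), where 8.91% of the genes at such means were lower and 1.93% higher. Fold changes were below 0 for 9 of the 10, against 69.5% of the genes at such means. The members' median log2 fold change was -0.50, against -0.02 over all genes and -0.18 over genes at such means. These counts describe a short list of well known genes and are not a test of the list.

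**Figure D1:**
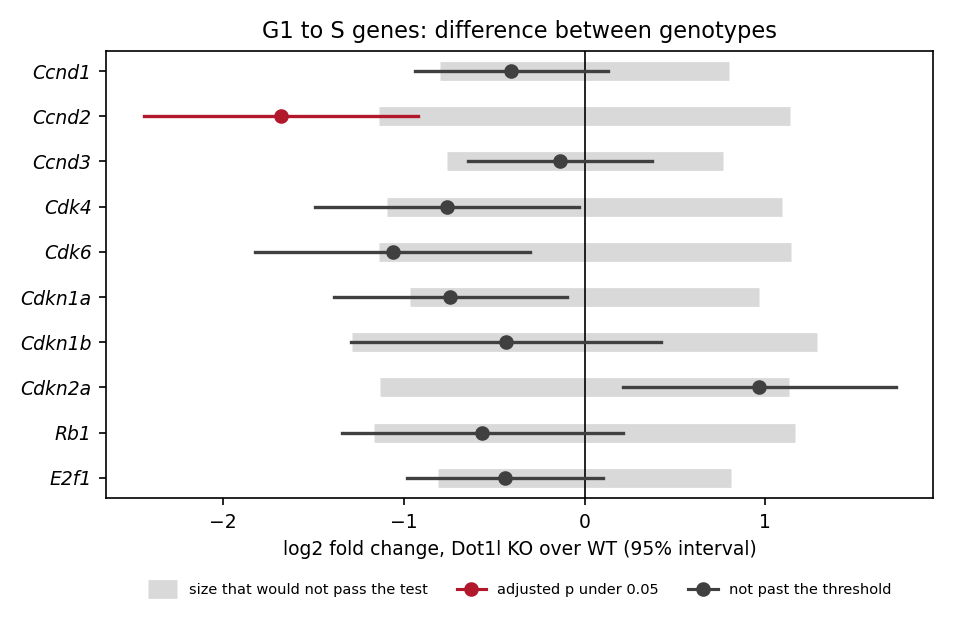
Log2 fold change between Dot1l KO and WT for each of the 10 genes (x axis), with its 95% interval as a line; grey bars span the sizes too small to pass the test given the gene's SE. Ccnd2 (red) lies outside its grey bar at -1.68, Cdk6 and Cdkn2a lie near the ends of theirs, and Ccnd3 lies closest to 0.

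Ccnd2 encodes cyclin D2, the member of the D-type family best known from gonads, B cells and neural precursors. Its implied mean was 804 normalized counts in WT and 251 in Dot1l KO, so KO held 31.2% of the WT level. The authors' deposited table gives a log2 fold change of -1.68 ± 0.39 (SE, 3 against 3 samples) with p = 1.43e-05 and adjusted p = 0.000672. This is a 3.20-fold difference with a 95% interval from 1.89 to 5.41. Among the 244 genes lower in KO at this threshold, Ccnd2 held place 58 by size of the fall and place 48 by p. Bonferroni adjustment ended the call, with adjusted p = 0.279.

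Ccnd1, cyclin D1, a target of growth factor and Wnt signals in many tissues, had an implied 2597 normalized counts in WT and 1961 in KO. Its log2 fold change, per the authors' deposited table, was -0.41 ± 0.27 with adjusted p = 0.507. Ccnd3, cyclin D3, which drives the division of blood cell precursors, had 9909 in WT and 9004 in KO, and the authors' deposited table gives -0.14 ± 0.26 with adjusted p = 0.876. Neither passed. The 95% interval of Ccnd2, from -2.44 to -0.92, did not meet that of Ccnd3, from -0.65 to 0.37, and met that of Ccnd1, from -0.94 to 0.13, only at its edge. Whether the fold changes of these cyclins differ was not tested, because errors shared through the same libraries are unknown.

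Measured per length of exon, Ccnd2 was the smallest part of the D-type cyclin RNA. On a scale on which the means over both groups sum to 1000000 over all genes, the implied WT levels were 94.2 for Ccnd3, 46.0 for Ccnd1 and 7.13 for Ccnd2. In WT, Ccnd3 made 63.9% of the summed level of the 3 cyclins, Ccnd1 31.2% and Ccnd2 4.84%; in KO the shares were 69.8%, 28.3% and 1.82%. The summed level in KO was 83.2% of that in WT, and over all genes together the same quantity in KO was 81.4% of that in WT. These sums carry no error of their own. The shares also depend on the annotated exon lengths, 8775 bases for Ccnd3, 4709 for Ccnd1 and 9409 for Ccnd2. Of these bases, 1100 in Ccnd1 and 361 in Ccnd3 overlap exons of a gene on the other strand. The percentages were not recomputed without them.

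The catalytic partners both had lower values in KO, and neither passed. Cdk4, the main kinase for D-type cyclins in many cells, had 21547 normalized counts implied in WT and 12706 in KO. The authors' deposited table gives -0.76 ± 0.37 with p = 0.0405 and adjusted p = 0.273. Cdk6, its close relative with a larger role in blood cells, had 1402 in WT and 672 in KO, or 48.0% of WT. Its log2 fold change was -1.06 ± 0.39 with p = 0.00623 and adjusted p = 0.0799 per the authors' deposited table. At its SE, Cdk6 would have needed a log2 fold change of at least 1.14 in size to pass. Per length, Cdk4 made 98.5% of the sum of both kinases in WT and 98.8% in KO.

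Of the inhibitors, p21 and p27 had lower values in KO and Cdkn2a a higher one. Cdkn1a, which encodes p21 and is the best known cell cycle target of p53, had 3657 normalized counts implied in WT and 2185 in KO. The authors' deposited table gives -0.74 ± 0.33 with p = 0.0237 and adjusted p = 0.193. Cdkn1b, encoding p27, had 1419 in WT and 1050 in KO, and its value was, per the authors' deposited table, -0.43 ± 0.44 with adjusted p = 0.718. It had the widest interval of the 10, from -1.29 to 0.42, and would have needed a 2.44-fold change to pass. Cdkn2a was the only member with a positive value. Its implied means were 314 normalized counts in WT and 614 in KO, so KO held 196% of the WT level, a ratio whose 95% interval ran from 1.16 to 3.30. The authors' deposited table has 0.97 ± 0.38 with p = 0.0118 and adjusted p = 0.123, so Cdkn2a did not pass there. Under another scaling, which makes the implied counts summed over all genes equal in the 2 groups, a choice made after seeing the data, it did pass, at 1.19 with adjusted p = 0.0282. How much of the Cdkn2a count belongs to p16 and how much to p19Arf, from the 2 starts printed above, was not measured.

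The substrate and the factor it holds back had lower values that did not pass. Rb1, the retinoblastoma protein, had 700 normalized counts implied in WT and 473 in KO, and the authors' deposited table gives -0.56 ± 0.40 with adjusted p = 0.539. E2f1, an activator of S phase genes that Rb1 binds, had 2570 in WT and 1894 in KO, with -0.44 ± 0.28 and adjusted p = 0.462 per the authors' deposited table. The intervals reached from -1.34 to 0.21 for Rb1 and from -0.98 to 0.10 for E2f1.

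The spread between replicates set how large a measured change had to be to pass. The coefficient of variation that each SE implies, as fitted by the authors' model, ran from 22.0% for Ccnd3 to 37.1% for Cdkn1b, with a median of 31.9% over the 10 genes against 26.4% over genes at such means. Ccnd3 would have passed with a 1.70-fold change, Ccnd1 with 1.74-fold and E2f1 with 1.75-fold. Cdk4 would have needed 2.13-fold, Cdkn2a 2.19-fold, Cdk6 2.20-fold and Rb1 2.24-fold. These sizes are cutoffs on the measured fold change and not limits on the true difference. A gene that did not pass may still differ between the groups.

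Levels per length differed widely among the members. Over both groups, Cdk4 stood highest at 440 on this scale, followed by Ccnd3 at 89.9, Cdkn1a at 68.6, E2f1 at 59.1, Ccnd1 at 40.4, Cdkn2a at 33.0, Cdkn1b at 22.6, Rb1 at 8.14, Cdk6 at 6.18 and Ccnd2 at 4.68. Neighbours in this order were separated beyond their 95% intervals at 3 steps. These were Cdk4 above Ccnd3 with a ratio of 4.89, E2f1 above Ccnd1 with 1.46, and Cdkn1b above Rb1 with 2.78. The other neighbours had overlapping intervals. All exons annotated for a gene enter its length. Genes with many annotated exon bases may therefore be set too low, such as Cdk6 with 13989, Ccnd2 with 9409 and Ccnd3 with 8775. Cdk4, Ccnd3, Cdkn1a, Ccnd1 and Rb1 also share exon bases with genes on the other strand, 1100 of 4709 for Ccnd1. How reads there were counted is not given, and the 3 steps were not recomputed without those bases.

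**Figure D2:**
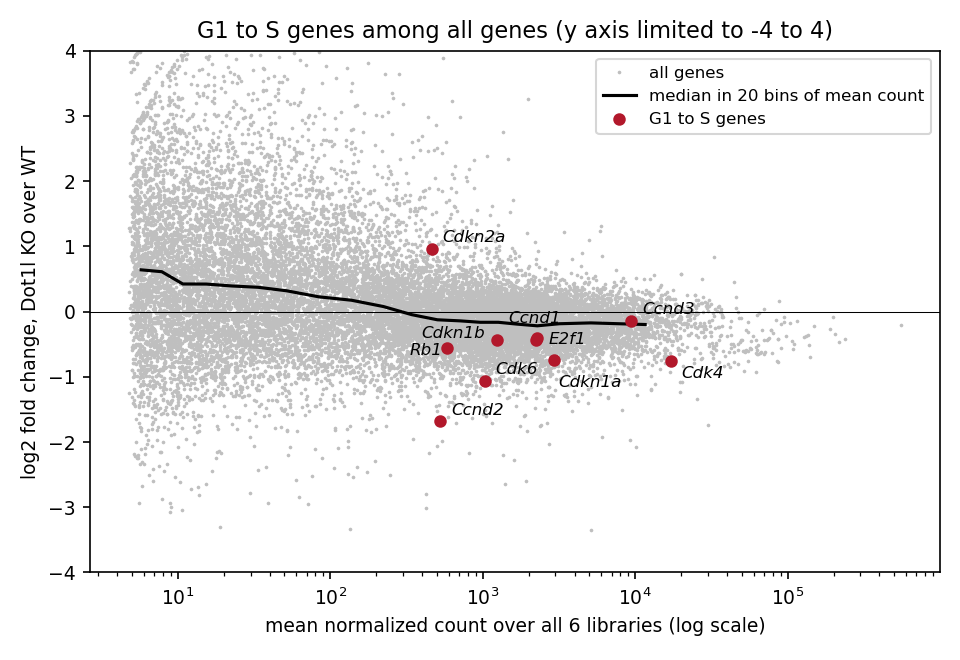
Log2 fold change (y axis, limited to -4 to 4) against mean normalized count (log x axis) for all genes in grey and the 10 G1 to S genes in red; the black line is the median in 20 bins of mean count. The line runs below 0 at the counts of the members, and 8 of the 10 lie below it.

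Fold changes in this table depend on abundance, which matters for genes as abundant as these. In the bins of mean count that hold the members, the median log2 fold change of all genes was between -0.22 and -0.13. After that median was subtracted, 8 of the 10 members were below 0, their median was -0.35, and Ccnd3 turned to 0.06. Ccnd2 stood at -1.55 and still passed, with adjusted p = 0.00267. Summed over all genes, the implied counts in KO were 85.4% of those in WT. Setting the 2 sums equal moves the median of all genes to 0.21, turns Ccnd3 to 0.09, leaves 8 members below 0 with a median of -0.28, and changes the share of higher calls over the table from 81.1% to 93.1%. Ccnd2 passed on this scale as well.

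**Figure D3:**
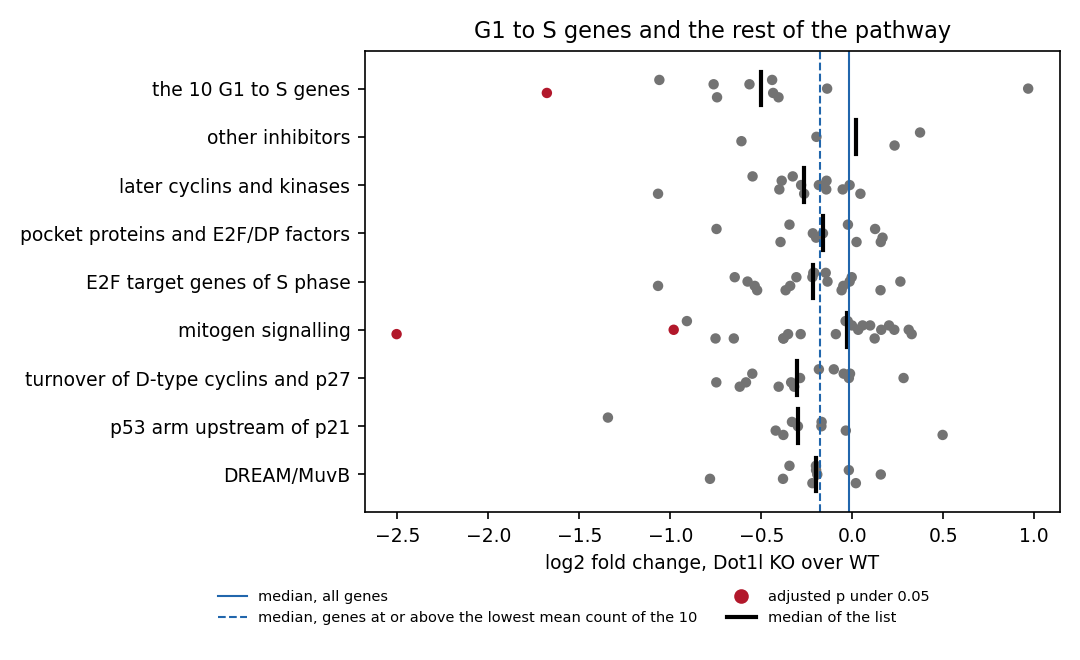
Log2 fold changes (x axis) of the 10 genes and of the lists of other pathway genes, 1 point per gene, with list medians as black bars and genes past the threshold in red. Blue lines mark the medians over all genes and over genes at or above the lowest mean count of the 10; only Ccnd2, Fgfr2 and Mapk3 are red.

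The rest of the pathway was followed in 8 lists that hold 97 genes beside the members, all of them tested. Of these, 0 were higher and 2 lower by the test of DESeq2, and at an unadjusted p of 0.05 there were 0 higher and 10 lower. Among genes at or above the lowest mean count of the members, the test called 1.97% lower and 0.958% higher. At an unadjusted p under 0.05 the shares there were 8.91% lower and 1.93% higher. The median of the 97 was -0.20, against -0.18 for genes at such means. Values lay below 0 for 76 of the 97 (78.4%), against 69.5%. With the median of their bin of mean count subtracted, the median of the 97 was -0.02.

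Both genes that fell belong to the list of mitogen signalling towards D-type cyclins, which held 23 genes with a median of -0.03. Fgfr2, a receptor for fibroblast growth factors, fell by 2.50 ± 0.37 per the authors' deposited table, adjusted p = 3.30e-09, from an implied 419 normalized counts in WT to 73.8 in KO. Mapk3, which encodes the kinase Erk1, fell by 0.98 ± 0.32 with adjusted p = 0.0346 per the authors' deposited table; this call was lost under 6 of 8 other settings. Fgfr1, another receptor of this family, was at -0.38 ± 0.30 per the authors' deposited table. Genes that report Erk signalling in these cells did not pass: the authors' deposited table has the factors Etv4 at -0.0014 ± 0.37 and Etv5 at -0.03 ± 0.25, the phosphatase Dusp6 at 0.12 ± 0.50 and the inhibitor Spry4 at 0.31 ± 0.67. Spry2 and Fos, in the same list, had lower values in KO and did not pass either. The SEs of Dusp6 and Spry4 leave their changes unresolved, and whether Erk signalling changed was not tested. For Myc, which can raise Ccnd2 and Cdk4, the authors' deposited table gives 0.06 ± 1.15, an SE that leaves its change unresolved. Mycn, the form prominent in stem cells, was at -0.91 ± 0.45 with adjusted p = 0.276 per the authors' deposited table.

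The 4 other inhibitors of the families of p16 and p21 had 0 calls and a median of 0.02. Cdkn2b, which encodes p15 and lies beside Cdkn2a on chromosome 4, stood at 0.23 ± 0.46 per the authors' deposited table. Cdkn2c, encoding p18, was at -0.61 ± 0.51 with adjusted p = 0.634, and Cdkn1c, encoding p57, at 0.37 ± 0.50 with adjusted p = 0.804, both per the authors' deposited table. Per the authors' deposited table Cdkn2d, encoding p19Ink4d, was at -0.20 ± 0.33.

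The 13 later cyclins and kinases, with Cdc25 phosphatases, had 0 calls and a median of -0.26. The lowest p-values were those of Ccne1, cyclin E1, the cyclin that is abundant through the stem cell cycle, and of the mitotic cyclin Ccnb2. The authors' deposited table gives Ccne1 -1.07 ± 0.41 with adjusted p = 0.107 and Ccnb2 -0.55 ± 0.23 with adjusted p = 0.158. Cdk2, the partner of cyclin E, was at -0.40 ± 0.26 and Ccna2, cyclin A2, at -0.01 ± 0.25 per the authors' deposited table.

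Downstream of Rb1, the 11 pocket proteins and E2F and DP factors had 0 calls and a median of -0.16. E2f8, a repressor among the E2F factors, was at -0.75 ± 0.32 with adjusted p = 0.169 and E2f5 at -0.39 ± 0.25 with adjusted p = 0.483, per the authors' deposited table. The Rb1 relatives Rbl1 and Rbl2 stood at 0.16 ± 0.31 and -0.20 ± 0.44 per the authors' deposited table. The 19 E2F target genes of S phase, such as the MCM helicase genes and Pcna, had 0 calls and a median of -0.21, close to the -0.18 of all genes at such means. Beside Ccne1, the lowest p there was that of Rrm2, a subunit of ribonucleotide reductase, at -0.52 ± 0.22 with adjusted p = 0.176 per the authors' deposited table. A further list covered the DREAM complex, which silences cell cycle genes in resting cells, and its MuvB core. The list also held Mybl2 and Foxm1, which are not parts of DREAM. Its 10 genes had 0 calls and a median of -0.20. Its lowest p-values belonged to Lin37, at -0.78 ± 0.46 with adjusted p = 0.418, and Foxm1, at -0.38 ± 0.28 with adjusted p = 0.568, per the authors' deposited table.

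The lists for protein turnover and for p53 gave 0 calls too. The 14 genes for the turnover of D-type cyclins and p27, mostly parts of ubiquitin ligases, had a median of -0.30, with Cks2 at -0.75 ± 0.37 (adjusted p = 0.293) and Skp1a at -0.58 ± 0.31 (adjusted p = 0.331) per the authors' deposited table. Skp2, the receptor that targets p27, was at -0.40 ± 0.25 per the authors' deposited table. The list around p53, with Trp53, Mdm2, Mdm4 and genes that p53 can activate, held 9 genes with a median of -0.30. Gadd45a, a stress gene that p53 can activate, came closest to the threshold there, at -1.34 ± 0.46 with adjusted p = 0.0536 per the authors' deposited table, and Sesn1 stood at 0.50 ± 0.34 with adjusted p = 0.532, also per the authors' deposited table. Trp53 itself was at -0.38 ± 0.35 per the authors' deposited table.

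**Figure D4:**
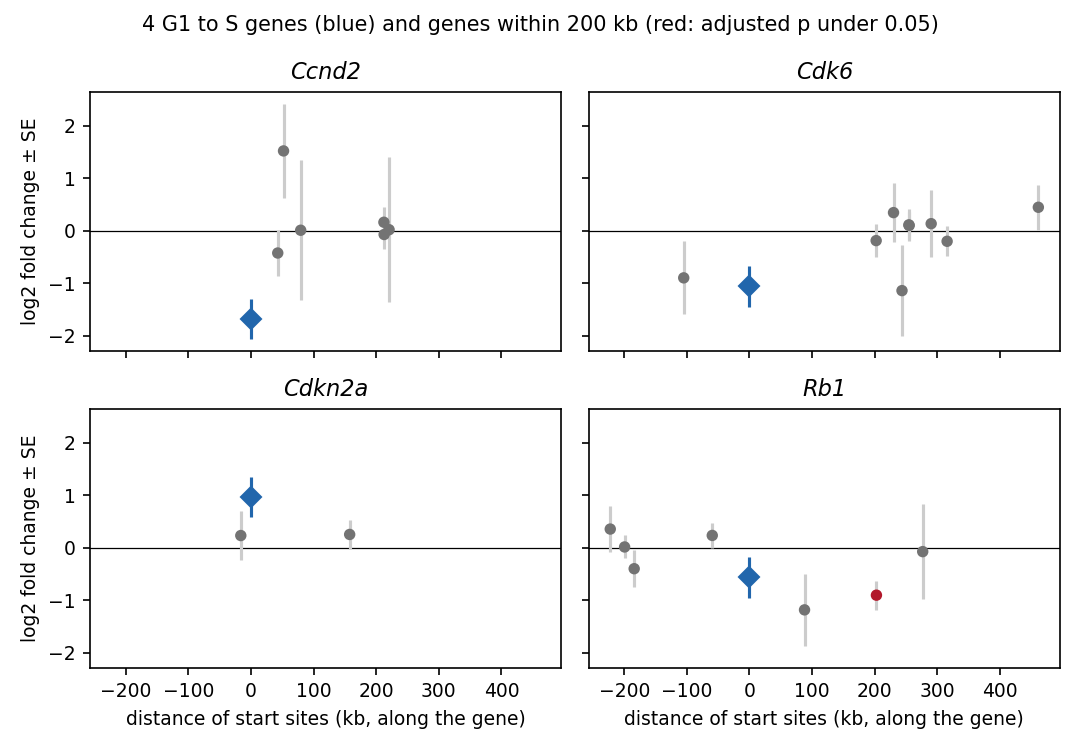
Log2 fold change with SE (y axis) of tested genes whose spans lie within 200 kb of Ccnd2, Cdk6, Cdkn2a and Rb1, against the distance between start sites in kb along the gene's own direction (x axis); blue diamonds are the G1 to S genes. No gene around Ccnd2 is red, and the red gene beside Rb1 is Rcbtb2 at -0.90.

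None of the tested genes around Ccnd2 passed the test. Ccnd2 lies on chromosome 6 from 127125162 to 127152193 (mm10, minus strand), and of the 6 tested genes within 200 kb 0 passed, with a median of 0.02. That median lies between Fgf23 and Gm17808, which had mean counts of only 5.92 and 9.35 and SEs of 1.34 and 1.39. Platr31 had a mean count of 9.66, so these 3 genes would have needed very large changes to pass. Per the authors' deposited table, Rad51ap1 stood at -0.07 ± 0.28 and D6Wsu163e at 0.16 ± 0.30. Tigar, a regulator of sugar phosphates and the nearest coding gene with a tested value, was at -0.42 ± 0.44 with adjusted p = 0.732 per the authors' deposited table. Around Cdk6 (chromosome 5, 3341485 to 3531008) 0 of 9 tested genes passed, with a median of 0.10. Beside Cdkn2a (chromosome 4, 89274471 to 89294653) the 2 tested genes were Cdkn2b and Mtap, and Mtap stood at 0.25 ± 0.28 per the authors' deposited table. Over all members, 3 of 101 tested genes in these windows passed. The share called was 6.58% over all genes and 2.93% over genes at or above the lowest mean count of the members. The 3 were Fgf3, beyond Ccnd1 (chromosome 7, 144929931 to 144939925), Rab44, beyond Cdkn1a (chromosome 17, 29090976 to 29100727), and Rcbtb2, beside Rb1 (chromosome 14, 73183673 to 73325822). The authors' deposited table gives Fgf3 1.10 ± 0.31 with adjusted p = 0.00981, Rab44 1.31 ± 0.44 with adjusted p = 0.0493 and Rcbtb2 -0.90 ± 0.27 with adjusted p = 0.0205. Whether the neighbours differ from Ccnd2 was not tested as a difference. The remaining members lie on chromosome 17 from 47505051 to 47599691 (Ccnd3), chromosome 10 from 127063534 to 127067920 (Cdk4), chromosome 6 from 134920401 to 134925513 (Cdkn1b) and chromosome 2 from 154559407 to 154569892 (E2f1), and 0 of the tested genes in their windows passed.

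Some members share exon sequence with a gene on the other strand, and how the counting used strand is not given in these sources, so reads there cannot be told apart. Rb1 shared 488 exon bases with Rcbtb2 and 408 with Lpar6, a receptor gene within the span of Rb1. Ccnd1 shared 1100 exon bases with LTO1, Cdk4 641 with Tspan31, and Ccnd3 361 with Bysl. Cdkn1a shared 273 with the clone-named AC167363.2, a weakly expressed model. Ccnd2, Cdk6, Cdkn1b, Cdkn2a and E2f1 overlapped no other tested gene.

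As a check of the cells, all 8 stem cell markers, among them Pou5f1, Sox2 and Nanog, had mean counts of at least 5956, and 0 of them passed. Some genes of other cell types passed as higher in KO, where 5.34% of all genes did. They were 5 of 7 primitive endoderm markers, 4 of 7 tested fibroblast markers and 8 of 12 markers of the 2-cell-like state. The fibroblast markers Pdgfrb, at 0.70 ± 0.50, Vim, at -0.48 ± 0.25, and Twist1, at -0.12 ± 0.37, did not pass, per the authors' deposited table. Implied counts summed over the primitive endoderm markers were 3371 in WT and 6765 in KO, and over the 2-cell-like markers 53.2 and 2675. Over the fibroblast markers, which Vim dominates, they were 9996 and 8670, and the defining markers Postn, Prrx1 and Lum had no row in the table. The part of such cells in the values of Ccnd2, Cdkn2a and the other members was not tested. The directions of these markers rest on the sign taken from MT2_Mm and are not a check of it.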

How the data were processed

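The members and gene lists were chosen with earlier results of these data known. Reads were aligned with HISAT2 2.1.0 to mm10, counted with featureCounts 2.0.0 and tested with DESeq2, per the submitters' processing notes; these notes give no strand setting, filter or model formula. Per the file headers, the mean is a signal of read counts divided by size factors, the effect a log2 fold change with its SE, the score the Wald statistic, and the p-value the authors' Wald p with its adjustment. The statistic was checked to equal the fold change over its SE, and the adjustment was recomputed with the same values; 7 genes had no p. The planned edgeR fit, used only if the files held counts per sample, did not apply, so depth per library is unknown. The mean counts sum to about 36042600.

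From the deposited values, Python 3.11.15 with scipy 1.17.1 gave 95% intervals, group means under equal group sizes, the replicate variation the SE implies, and levels per union exon length of GENCODE M21 (GRCm38). The size needed to pass was the smallest Wald statistic among calls, 2.94, times the SE. The formulas for group means, replicate variation and calls were run on simulated data, with the spread taken as given. Levels per length and neighbours were not tested in this way. All 19571 symbols matched the annotation. Planned protein comparisons were not made, and single transposable element copies were not used here. Named genes are the members, Dot1l, the 2 genes of lowest p and all calls of each list, and calls near members; Fgfr1, Etv4, Etv5, Dusp6, Spry4, Myc, Mtap, Tigar and other uncalled examples were picked with their values known. Alternatives were 7 planned settings and 1 added after seeing the data. The value of 1 gene of a pathway list is left out of the text.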

Additional observations from a re-analysis of the deposited data

How the results depend on the processing

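Ccnd2 passed the threshold under 7 of 8 alternatives; with Bonferroni adjustment 0 of the members passed, and Ccnd2 had adjusted p = 0.279. Its adjusted p ran from 0.000672 to 0.279 over the alternatives. When the summed counts of the groups were set equal, a choice made after seeing the data, 2 members passed (Ccnd2 and Cdkn2a). The count of other pathway genes past the threshold, 2 as reported, was 1 at an adjusted p of 0.01, with a log2 fold change of at least 1, with Bonferroni adjustment, when centred within 20 bins of mean count, with Wald statistics scaled by their interquartile range, and with equal summed counts; in each the lost call was Mapk3. Ccnd3 changed sign, to 0.060 when centred within bins and to 0.089 with equal summed counts. Over the table, 1288 genes passed as reported, 767 at 0.01, 309 with Bonferroni adjustment, 737 at a mean count of at least 50 and 455 with scaled statistics. No paired analysis was possible because the files hold no values per sample, although the labels number replicates alike in both groups; leaving out single replicates and a count test by another tool were not run for the same reason. The depth of single libraries, and with it the counting error of values per sample, is unknown.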

Other observations

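At the Rb1 locus, the tail of Rb1 and that of Rcbtb2 share 488 exon bases on opposite strands. Rcbtb2, a gene with RCC1 repeats and a BTB domain, had -0.90 ± 0.27, adjusted p = 0.0205 per the authors' deposited table, Rb1 at -0.56 ± 0.40, adjusted p = 0.539 per the authors' deposited table, and Lpar6, within Rb1, at -1.18 ± 0.69, adjusted p = 0.403 per the authors' deposited table. All 3 values lie below 0, and whether they are independent of the shared bases was not tested.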
